A study of Mus musculus with 6 samples.

Results

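The enzymes described here supply the pyrimidine building blocks of RNA and DNA. They are 9 genes, chosen by name from the deposited count table of 45808 gene symbols: Cad, Umps, Ctps, Rrm1, Rrm2, Tyms, Tk1, Dut and Dtymk. Each of the 9 names matched 1 row. All 9 genes were higher in T cells labelled Drp1 KO than in wild-type T cells, by 28.2% (Dtymk) to 84.6% (Rrm2), and for none of them did the libraries of the 2 groups overlap. Of all 14209 genes tested, 26.7% were called higher in KO and 32.5% had all KO libraries above all wild-type libraries.

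Cells make pyrimidines in a single pathway that starts with Cad, a large protein carrying the opening enzymatic steps, and ends in UMP, made by Umps. Ctps then turns UTP into CTP. Ribonucleotide reductase, built from the large subunit Rrm1 and the small subunit Rrm2, removes an oxygen from the ribose of nucleotides and so makes the precursors of DNA. Thymidine nucleotides come either from dUMP, which Tyms methylates with a folate cofactor, or from salvaged thymidine, which Tk1 phosphorylates; Dtymk adds the next phosphate, and Dut breaks down dUTP to keep uracil out of DNA. Resting T cells hold small pools of these compounds, and the pathway is known to be switched on when T cells are activated and prepare to divide.

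The mice were on a C57BL/6 background and 2 months old. Their spleen T cells were stimulated in culture with antibodies to CD3 and CD28, together with IL-2, the main growth factor of activated T cells. There were 3 libraries of wild-type cells and 3 of cells with the genotype Drp1-/-, and both groups had the same stimulation. Drp1, encoded by Dnm1l, is the GTPase that constricts and divides mitochondria, and the study's title links it to migration, proliferation and metabolic reprogramming that depends on cMyc. The labels give neither the way in which the gene was deleted, nor the cells in which it was, nor the length of the stimulation. They also do not tie the replicates to separate mice or cultures. The p-values therefore rest on the spread among these 6 libraries alone, and that spread may be technical.

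Between 24738017 and 34730475 counts were recorded per library. Values below are CPM, counts per 1000000 of a library's total times its normalization factor, as mean ± SD over 3 libraries. Dnm1l itself was at 123, 117 and 117 CPM in the wild-type libraries and at 92.6, 92.9 and 100.6 CPM in the KO libraries (log2 fold change -0.32 ± 0.05 SE, edgeR quasi-likelihood adjusted p = 0.000728). Exons outside a deletion would still add to such a count, and whether they account for the reads that remain was not tested. The edgeR test called 7513 of 14209 tested genes at an adjusted p under 0.05, or 52.9%, so a call alone is common in these data. Of the tested genes, 26.7% were called higher and 26.1% lower, the shares to set beside the marker counts below. Of the wild-type libraries, replicate 1 was unlike the other ones, at a chi-square per gene of 12.3 and 13.7, where replicates 2 and 3 differed by 2.58. Xist, the RNA expressed from an inactive X chromosome, was read 0, 3 and 1 times in the wild-type libraries and 16862, 12950 and 14744 times in the KO libraries. Uty, Kdm5d and Ddx3y, genes of the Y chromosome named after their values were seen, were read in all 6 libraries and were lower in KO (for Uty, 69.3 ± 7.77 against 37.7 ± 2.91 CPM). Genotype and this difference in sex-linked RNA cannot be told apart. The 11 T cell markers summed to 3908 to 3977 CPM in the wild-type libraries and 3244 to 3359 CPM in the KO libraries, none of them at 0, with 9 of 11 called lower, and the label of T cells was met in every library. Markers of gamma-delta T cells (5 genes, 5 called higher) summed to 42.1 to 48.8 CPM in the wild-type libraries and 99.8 to 119.1 CPM in the KO libraries, and those of megakaryocytes and platelets (5 genes, 3 tested and called higher) to 7.58 to 9.66 and 19.9 to 22.9 CPM. B cell markers (7 genes, 1 called higher and 2 lower) summed to 519 to 529 and 449.6 to 471.3 CPM, and myeloid markers (7 genes, with S100a8 and S100a9 at 0 in all libraries) to 3.83 to 4.38 and 3.06 to 4.03 CPM. Of the 2 myeloid markers tested, Itgam, which makes up most of that sum, was called lower (log2 fold change -0.44, edgeR adjusted p = 0.0197). The other, Lyz2, was called higher on 4 to 20 counts per library (1.36, edgeR adjusted p = 0.0076). Erythroid markers (6 genes, of which 4 were at 0 in at least 1 library, Hba-a1, Hbb-bs and Alas2 among them) summed to 0.554 to 1.21 CPM in the wild-type libraries and 1.71 to 2.57 CPM in the KO libraries. The 2 tested ones were both called higher, Hbb-bt (log2 fold change 1.62, edgeR adjusted p = 0.00107) and Klf1 (0.95, edgeR adjusted p = 0.0486). The part of these other cells in the results below was not tested. In bulk RNA, more cells with an enzyme and more of its RNA per cell cannot be told apart.

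Since the 9 genes moved together, the 250 bases before their RefSeq start sites (GRCm38.p6, 10 windows, of which Ctps has 2) were searched on both strands for 3 short motifs. E2F factors switch on genes for DNA synthesis as cells enter S phase, and the 4 forms of their site searched were TTCCCGC (found in Rrm1), TTGGCGC (found in Dtymk), TTGCCGC (found on the other strand in Rrm2) and TTCGCGC (found on the other strand in Ctps). The E-box CACGTG is the best known site of Myc with Max, and CCAAT is bound by NF-Y. The stretches below run 5′ to 3′ on the strand of the gene, and their capitals mark every match, with 15 bases on either side where the window allows. They are shown because they are the stretches of the 10 windows that hold a match.
Ctps, second start, chr4:120569672-120569708, minus strand: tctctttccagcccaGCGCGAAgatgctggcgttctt
Rrm1, chr7:102441589-102441669, plus strand: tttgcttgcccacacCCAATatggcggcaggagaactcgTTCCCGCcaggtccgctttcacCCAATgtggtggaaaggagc
Rrm2, chr12:24708004-24708223, plus strand: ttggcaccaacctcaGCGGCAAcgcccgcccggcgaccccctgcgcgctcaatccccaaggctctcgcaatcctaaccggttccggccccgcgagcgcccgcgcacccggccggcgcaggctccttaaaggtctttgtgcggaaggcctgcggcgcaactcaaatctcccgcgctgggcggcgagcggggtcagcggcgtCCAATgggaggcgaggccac
Tyms, chr5:30073666-30073701, minus strand: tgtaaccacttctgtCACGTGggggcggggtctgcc
Dtymk, chr1:93801985-93802097, minus strand: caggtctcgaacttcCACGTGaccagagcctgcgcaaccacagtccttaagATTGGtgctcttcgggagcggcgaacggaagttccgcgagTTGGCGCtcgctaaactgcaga

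An E2F form was found in 4 of 10 windows, from 4 of 9 genes (Ctps at its second start, Rrm1, Rrm2 and Dtymk). Of 32851 windows of the same length, not matched for base content, 7.89% held one. With positions counted from the start site, so that -1 is the last base before it, the form in Rrm1 lay at -67 to -61, between a pair of CCAAT matches that began at -91 and -45. Dtymk had its E2F form at -72 to -66, CCAAT on the other strand, read here as ATTGG, and CACGTG farther out, at -148 to -143. Rrm2 and Ctps held their forms near the far end of the window, from -235 and -234. CACGTG was found in 2 of 10 windows (Tyms and Dtymk), against 6.02% of all windows, and CCAAT in 3 of 10 (Rrm1, Rrm2 and Dtymk), against 33.8%. Cad, Umps, Tk1 and Dut had none of these letters in their windows. Some RefSeq starts lie inside the gene as GENCODE gives it: all 250 bases of the Dut window and of the second Ctps window are within the gene, as are 78 bases of the Tk1 window and 13 of the Rrm2 window. The sequence before the GENCODE start of Dut was therefore not searched. A longer E2F form, with 1 more T in front, had been searched first and was found in 0 of 10 member windows and 1.86% of all windows. The shorter forms counted above were searched after that result was known, so their count in these windows is no independent evidence. The first 50 transcribed bases that RefSeq gives after the start of Tyms and the second start of Ctps do not occur whole in a GENCODE transcript of these genes. These matches describe letters in a window and show no binding.

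Each of the 3 member enzymes on the way from the opening steps to CTP was higher in KO. This does not hold for the whole pathway. Of 7 other synthesis genes tested, described below, 3 were called higher, 1 lower and 3 did not pass, beside 26.7% and 26.1% of all tested genes called higher and lower. Cad (ENSMUSG00000013629.16, mm10 chr5:31054780-31078479, plus strand), which carries the carbamoyl phosphate synthetase, aspartate transcarbamylase and dihydroorotase activities, was at 140.4, 167 and 174 CPM in wild-type replicates 1, 2 and 3 and at 260.1, 294 and 280.4 CPM in KO. Its highest wild-type library lay 1.498-fold below its lowest KO library, the widest gap of the 9 genes. Cad rose from 160.2 ± 17.5 to 278 ± 17.1 CPM, a 1.73-fold change (log2 0.79 ± 0.08 SE, 95% interval 0.62 to 0.97, edgeR adjusted p = 5.48e-05).

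Umps (ENSMUSG00000022814.6, chr16:33954782-33967038, minus strand), the enzyme of the last 2 steps to UMP, was at 48.3, 59.1 and 58.8 CPM in wild type and 84.0, 91.1 and 85.0 CPM in KO. All KO libraries stood above all wild-type ones. The change was 1.56-fold (log2 0.64 ± 0.08, edgeR adjusted p = 0.000137). Ctps (ENSMUSG00000028633.7, chr4:120539868-120570276, minus strand), the CTP synthase that lymphocytes are known to need for proliferation, was at 70.2, 78.0 and 79.9 CPM in wild type and 117, 132.5 and 128 CPM in KO. Here too the groups were apart, and replicate 1 was the lowest library of each. Ctps rose 1.65-fold (log2 0.72 ± 0.07, edgeR adjusted p = 4.16e-05).

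**Figure D1:**
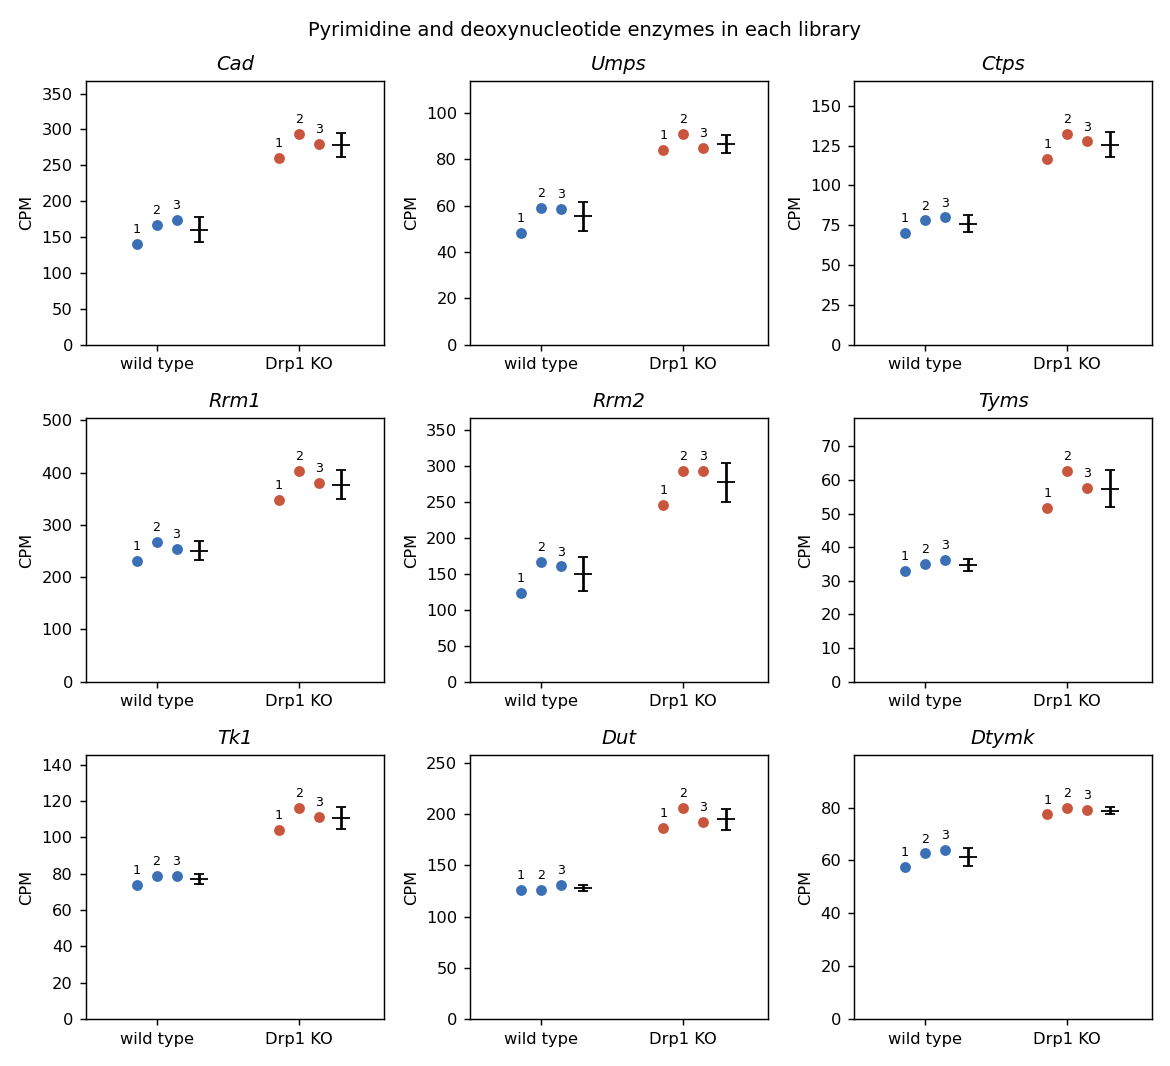
Level in CPM (y axis, from 0, a scale of its own for each gene) of the 9 enzymes in 3 wild-type (blue) and 3 Drp1 KO (red) libraries, numbered by replicate, with mean and SD as the black bar. In every panel the 3 KO points lie above the 3 wild-type points, and replicate 1 is the lowest point of its group, for Dut in wild type about level with replicate 2.

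Both subunits of ribonucleotide reductase rose. Rrm1 (ENSMUSG00000030978.10, chr7:102441695-102469771, plus strand), the catalytic subunit with the allosteric sites, was at 231, 267 and 254 CPM in wild type and 347, 403 and 380.1 CPM in KO. Rrm2 (ENSMUSG00000020649.11, chr12:24708241-24714146, plus strand), the small subunit that holds the iron center and is made in S phase, was at 123, 166 and 160 CPM in wild type and 245.5, 293 and 292 CPM in KO. Neither gene's groups overlapped, and for both the first library of each group was the lowest. The rise was 1.51-fold for Rrm1 (log2 0.59 ± 0.07, edgeR adjusted p = 0.000113). Rrm2 had the largest rise of the 9 enzymes, from 149.8 ± 23.2 to 277 ± 27.2 CPM, or 1.85-fold (log2 0.88 ± 0.11, 95% interval 0.65 to 1.121, edgeR adjusted p = 0.000138). It also had the widest spread among wild-type libraries, with a coefficient of variation of 15.5%.

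The thymidylate enzymes rose as well. Tyms (ENSMUSG00000025747.12, chr5:30058202-30073617, minus strand), thymidylate synthase, was at 32.9, 35.1 and 36.2 CPM in wild type and 51.8, 62.7 and 57.6 CPM in KO. This is the enzyme with the fewest reads, 773 in wild-type replicate 1, where counting error alone is 3.60% of the value, and its groups were still well apart. It rose 1.65-fold (log2 0.72 ± 0.07, edgeR adjusted p = 7.02e-05). Tk1 (ENSMUSG00000025574.13, chr11:117815526-117826092, minus strand), the cytosolic thymidine kinase of dividing cells, was at 73.6, 78.7 and 78.5 CPM in wild type and 104, 116 and 111 CPM in KO. The lowest KO library was 1.32-fold above the highest wild-type one. Tk1 rose 1.44-fold (log2 0.52 ± 0.06, edgeR adjusted p = 8.58e-05).

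Dut (ENSMUSG00000027203.15, chr2:125247190-125258608, plus strand), the dUTPase that also delivers dUMP to Tyms, was at 126, 126 and 131 CPM in wild type and 186, 206 and 192 CPM in KO. Its wild-type libraries were the closest together of any of the 9 enzymes, with a coefficient of variation of 2.28%. Dut rose 1.52-fold (log2 0.61 ± 0.05, edgeR adjusted p = 3.25e-05). Dtymk (ENSMUSG00000026281.15, chr1:93792576-93801934, minus strand), thymidylate kinase, through which both routes to dTTP pass, was at 57.6, 62.6 and 63.9 CPM in wild type and 77.4, 79.8 and 79.1 CPM in KO. It had the narrowest gap between the groups, 1.21-fold, and the smallest rise, 1.28-fold (log2 0.36 ± 0.05, 95% interval 0.24 to 0.48, edgeR adjusted p = 0.000439).

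Counted together, 9 of 9 enzymes were called higher and 0 lower, where 26.7% of all tested genes were called higher and 26.1% lower. All 3 KO libraries lay above all 3 wild-type libraries for 9 of 9, beside 32.5% of all tested genes, and all 3 below for 0 of 9, beside 30.8%. The median log2 fold change of the 9 was 0.64, beside 0.0070 over all tested genes. In the order of all tested genes by fold change, the 9 stood between the 80.1 percentile (Dtymk) and the 96.4 percentile (Rrm2). Their summed counts made up 0.0857%, 0.102% and 0.102% of the wild-type libraries and 0.152%, 0.172% and 0.165% of the KO libraries.

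The libraries within a group also differed in a shared way. Wild-type replicate 1 was the lowest wild-type library for 9 of 9 enzymes. KO replicate 1 was the lowest and KO replicate 2 the highest KO library for 9 of 9. Some of these were near ties: Dut was at 126.1 CPM in both wild-type replicates 1 and 2. Rrm2 was at 292.7 and 292.4 CPM in KO replicates 2 and 3. How many of all tested genes share this order was not counted, and wild-type replicate 1 stood apart over all genes, as given above. Averaged over the enzymes, the log2 level relative to each gene's mean was -0.45, -0.27 and -0.26 in wild type and 0.23, 0.41 and 0.34 in KO. Without wild-type replicate 1 all 9 stayed higher in KO, with a log2 fold change of 0.76 in place of 0.88 for Rrm2, 0.71 in place of 0.79 for Cad and 0.31 in place of 0.36 for Dtymk.

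Levels of different genes can be compared only per length, so CPM was divided by the length of 1 transcript per gene, that with the longest coding sequence. On this scale Dut was the most abundant in wild type, at 125.3 ± 2.85 CPM per kb. Rrm2 (68.3 ± 10.6), Rrm1 (62.65 ± 4.62) and Dtymk (61.2 ± 3.37) followed, and each overlapped its neighbour in the order. Tk1 (53.4 ± 2.02), Ctps (28.1 ± 1.92), Cad (22.4 ± 2.45), Umps (15.9 ± 1.77) and Tyms (10.98 ± 0.523) came next, each apart from its neighbours. The order of the means was the same in KO, from Dut at 191 ± 9.89 to Tyms at 18.1 ± 1.73 CPM per kb, but there Rrm2 (126.3 ± 12.4) was clear of Rrm1 (94.3 ± 7.05), and only Dtymk (78.5 ± 1.26) and Tk1 (76.8 ± 4.19) overlapped. The place of Tyms depends on the length used, since its chosen transcript has 3163 bases of which 921 are coding. Per kb of coding sequence Cad was the lowest, at 24.0 ± 2.62 in wild type and 41.7 ± 2.56 in KO, and Tyms stood at 37.7 ± 1.80 and 62.3 ± 5.93.

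**Figure D2:**
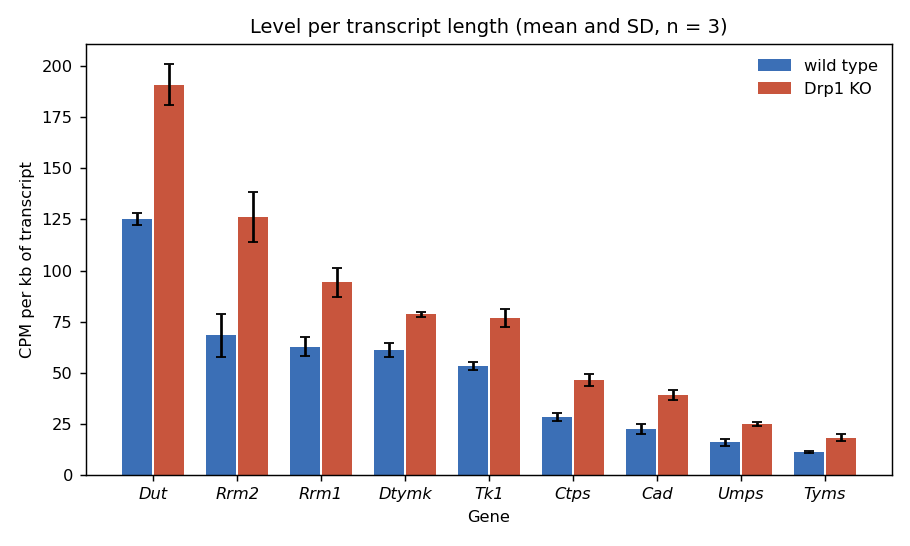
Level of the 9 enzymes in CPM per kb of transcript (y axis, from 0) in wild type (blue) and Drp1 KO (red); bars are means and whiskers SD over 3 libraries. The genes are ordered by their wild-type level, which falls from 125.3 for Dut to 10.98 for Tyms, and the KO bar is the taller for each gene.

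Several of these enzymes have a relative with a similar reaction and another setting, and these did not all move with them. Ctps2, the second CTP synthase, encoded on the X chromosome, was at 95.9, 83.8 and 80.2 CPM in wild type and 62.8, 58.8 and 65.0 CPM in KO. Its groups did not overlap, in the direction opposite to Ctps. It fell from 86.6 ± 8.25 to 62.2 ± 3.15 CPM (log2 -0.48 ± 0.07, edgeR adjusted p = 0.000425). Rrm2b, the small reductase subunit that p53 induces and that serves cells outside S phase, was at 24.0, 24.5 and 27.8 CPM in wild type and 29.6, 30.4 and 33.8 CPM in KO. Its groups were close but did not overlap. It rose by 0.30 ± 0.08 on the log2 scale (edgeR adjusted p = 0.00861). Tk2, the mitochondrial thymidine kinase, was at 24.4, 29.8 and 29.0 CPM in wild type and 26.4, 25.1 and 26.1 CPM in KO, with overlapping groups. Its log2 fold change of -0.11 ± 0.08 did not pass (edgeR adjusted p = 0.28), but without wild-type replicate 1 it was -0.19 and passed (adjusted p = 0.013).

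The balance within each pair was read as a ratio of CPM in each library, which shows a change between groups and not which gene is more abundant. The ratio of Ctps to Ctps2 was 0.731, 0.931 and 0.997 in wild type and 1.86, 2.25 and 1.97 in KO, the largest shift of the 4 ratios (log2 difference 1.20 ± 0.16 SE). The ratio of Rrm2 to Rrm2b was 5.14, 6.80 and 5.76 in wild type and 8.31, 9.63 and 8.65 in KO (log2 difference 0.59 ± 0.13). The ratio of Tk1 to Tk2 was 3.01, 2.64 and 2.70 in wild type and 3.95, 4.62 and 4.27 in KO (log2 difference 0.62 ± 0.09). In each of these 3 ratios the groups were fully apart.

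The small to large reductase subunit ratio, Rrm2 to Rrm1, shifted the least, from 0.534, 0.623 and 0.631 to 0.707, 0.726 and 0.769 (log2 difference 0.30 ± 0.08), again with no overlap. For each of the 4 ratios the exact 2-sided permutation test gave p = 0.1, also after Benjamini-Hochberg adjustment over the 4, which is the smallest p that 3 libraries against 3 allow. No ratio can therefore pass a threshold of 0.05 in this design.

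**Figure D3:**
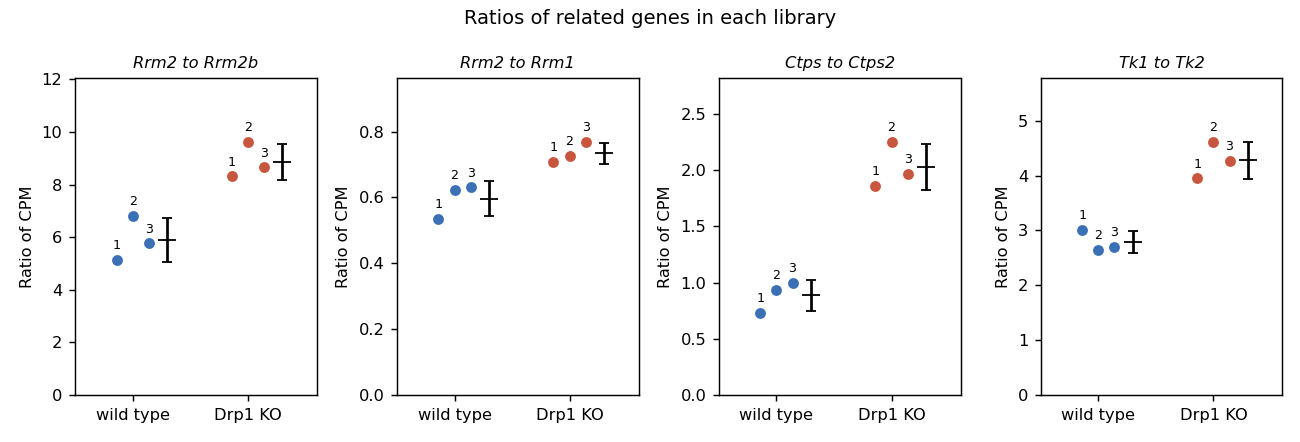
Ratio of the CPM of 2 related genes (y axis, from 0) in each of 3 wild-type (blue) and 3 Drp1 KO (red) libraries, numbered by replicate, with mean and SD as the black bar. In all 4 panels the KO points lie above the wild-type points, and the shift is largest for Ctps to Ctps2, from 0.887 ± 0.138 to 2.03 ± 0.203.

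The other genes of pyrimidine and deoxynucleotide metabolism were taken from 6 lists with 54 genes, of which 46 were tested. Of these, 24 were called higher, 10 lower and 12 did not pass, and their median log2 fold change was 0.21. Over all tested genes 26.7% were called higher and 26.1% lower, the shares to set beside each list count from here on. In the rest of the synthesis pathway, 3 of 7 tested genes rose and 1 fell. Dhodh, the enzyme that oxidizes dihydroorotate on the inner mitochondrial membrane and stands between Cad and Umps, was at 16.4, 18.8 and 20.1 CPM in wild type and 33.4, 38.5 and 33.6 CPM in KO. The KO libraries were all above the wild-type ones, and Dhodh rose by 0.92 ± 0.09 on the log2 scale (edgeR adjusted p = 4.7e-05). The nucleoside diphosphate kinase genes Nme1 (log2 0.62 ± 0.08) and Nme6 (0.64 ± 0.12) also rose (edgeR adjusted p = 0.000182 and 0.00122). Nme2, the neighbour and paralog of Nme1, had 8 to 16 counts per library and did not pass, and whether reads are shared between them was not tested. The gene that fell is Ctps2, described above.

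Among the other reductase subunit and the proteins that return electrons to the reductase, 5 of 6 genes rose and 1 fell. Gsr, glutathione reductase, rose from 34.1 ± 0.818 to 50.25 ± 0.404 CPM (log2 0.56 ± 0.05). Txnrd1, cytosolic thioredoxin reductase, rose by 0.54 ± 0.06 and Txn1, its substrate thioredoxin, by 0.41 ± 0.05 on the log2 scale. Glrx, the glutaredoxin that can serve in its place, fell from 48.9 ± 1.504 to 39.8 ± 0.257 CPM (log2 -0.30 ± 0.05). The edgeR adjusted p of these 4 genes ran from 4.16e-05 to 0.000885.

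All 5 genes of the folate cycle that feeds Tyms rose. Shmt1, the cytosolic serine hydroxymethyltransferase, was at 25.7, 38.9 and 39.9 CPM in wild type and 78.9, 94.2 and 85.5 CPM in KO. Wild-type replicate 1 was low here too, and every KO library was at least 1.98-fold above every wild-type library. Shmt1 rose by 1.30 ± 0.14 on the log2 scale (edgeR adjusted p = 7.32e-05), and by 1.13 without wild-type replicate 1. Mthfd1, the cytosolic enzyme that makes the one-carbon folates, rose from 76.1 ± 10.03 to 153 ± 11.2 CPM (log2 1.01 ± 0.09). Of their mitochondrial counterparts, Shmt2 rose by 0.40 ± 0.04 and Mthfd2 by 0.21 ± 0.04 on the log2 scale (edgeR adjusted p = 6.8e-05 and 0.00188). Mthfd2 lies outside the rule for named genes and was named as the counterpart of Mthfd1. The difference between the cytosolic and mitochondrial enzymes was not tested.

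Salvage of ready-made nucleosides was mixed, with 4 of 10 tested genes higher, 4 lower and a median log2 fold change of -0.08. Calls in both directions are also common over all tested genes (26.7% higher and 26.1% lower). Dctd, which turns dCMP into dUMP for Tyms, was at 22.3, 29.8 and 28.3 CPM in wild type and 41.9, 44.2 and 39.1 CPM in KO. Its groups did not overlap, and it rose by 0.63 ± 0.10 on the log2 scale (edgeR adjusted p = 0.000455). Cmpk2, a mitochondrial nucleotide kinase also known as an interferon-induced gene, rose from 0.673 ± 0.107 to 2.05 ± 0.271 CPM (log2 1.57 ± 0.20), on 13 to 73 counts per library. Upp1, uridine phosphorylase, fell from 25.2 ± 1.65 to 18.0 ± 0.709 CPM (log2 -0.48 ± 0.07), and Uck1, a uridine-cytidine kinase, fell by 0.24 ± 0.06. The edgeR adjusted p was 0.000184 for Cmpk2, 0.000339 for Upp1 and 0.00557 for Uck1. Dck, the deoxycytidine kinase of lymphocytes, was at 83.7 ± 6.42 and 73.45 ± 2.24 CPM (log2 -0.19 ± 0.06, edgeR adjusted p = 0.0262); without KO replicate 2 its adjusted p was 0.0966, without KO replicate 1 it was 0.068, and with library totals alone as the scaling it was 0.117. Uprt, on the X chromosome, was at 10.8 ± 0.816 and 12.8 ± 0.475 CPM (log2 0.24 ± 0.08, edgeR adjusted p = 0.0343); its adjusted p was 0.121 without wild-type replicate 2, 0.0566 to 0.107 without any 1 of the KO libraries and 0.0714 with DESeq2. Uck2, another uridine-cytidine kinase named after its values were seen, passed with all libraries (log2 0.17 ± 0.06, edgeR adjusted p = 0.0369) and not without wild-type replicate 1 (adjusted p = 0.0543). Cda, cytidine deaminase, had 0 counts in all 6 libraries, which allows at most 0.084 to 0.128 CPM, depending on the library (3 counts, for counting error only).

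Of 13 tested genes that clean or break down the pools, 5 rose and 4 fell, beside 26.7% and 26.1% of all tested genes. Samhd1, the hydrolase that destroys deoxynucleotides and lowers their level in resting cells, was at 957, 784 and 825 CPM in wild type and 569, 487 and 512 CPM in KO. All KO libraries lay below all wild-type libraries, opposite to the 9 enzymes, and wild-type replicate 1 was the highest. Samhd1 fell by 38.9%, from 855 ± 90.3 to 522.5 ± 42.1 CPM (log2 -0.71 ± 0.08, edgeR adjusted p = 9.2e-05), or by 0.62 on the log2 scale without that library. Nt5e, the surface nucleotidase CD73, fell from 16.8 ± 2.02 to 8.83 ± 0.978 CPM (log2 -0.92 ± 0.11), and Nt5c2, a cytosolic nucleotidase, by 0.33 ± 0.07 on the log2 scale. Nudt1, which removes oxidized purine nucleotides, rose from 8.17 ± 2.60 to 17.6 ± 1.16 CPM (log2 1.08 ± 0.18, and 0.86 without wild-type replicate 1). Dctpp1, a pyrophosphatase acting on dCTP and its analogs, rose by 0.49 ± 0.06 and Nt5c3b by 0.26 ± 0.07. The edgeR adjusted p of these 5 genes ran from 0.000138 (Nt5e) to 0.00764 (Nt5c3b). Dpyd, which starts pyrimidine breakdown, had 0 counts in all libraries.

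Nucleoside transporters were higher for 2 of 5 tested genes and lower for 0, beside 26.7% and 26.1% of all tested genes. Slc29a2, an equilibrative transporter, rose from 3.995 ± 0.618 to 7.09 ± 0.0841 CPM (log2 0.81 ± 0.12), and Slc29a1, another of its family, from 70.9 ± 1.08 to 87.5 ± 2.43 CPM (log2 0.30 ± 0.05), at edgeR adjusted p of 0.000393 and 0.00055.

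**Figure D4:**
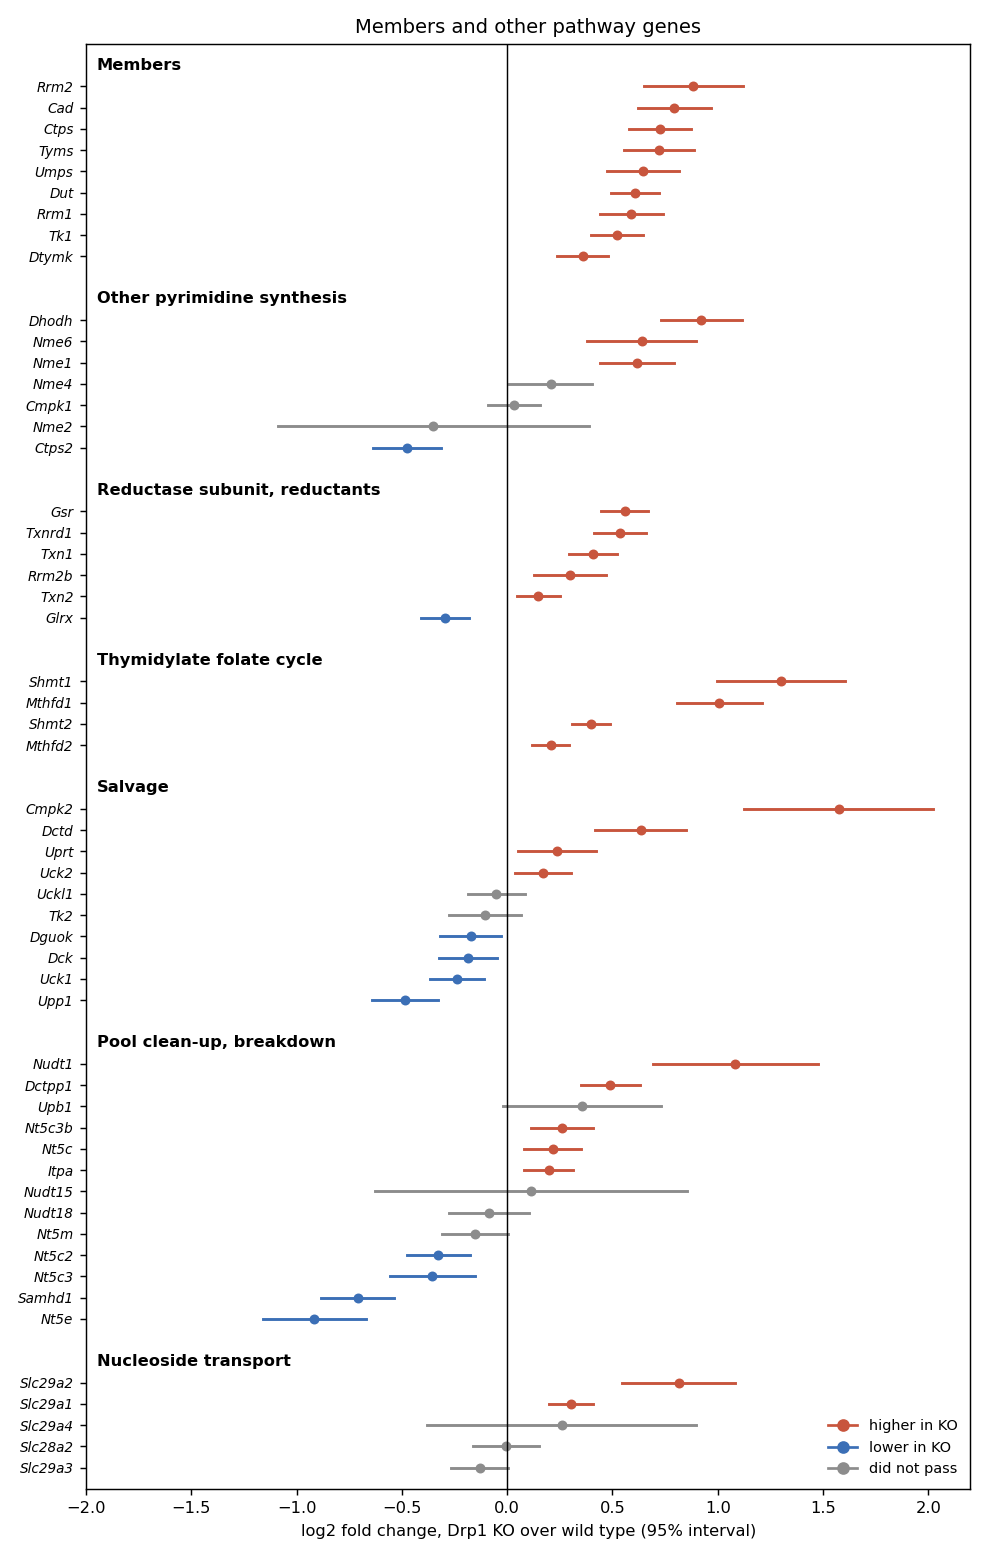
Log2 fold change of Drp1 KO over wild type (x axis) with its 95% interval for the 9 enzymes (called members in the plot) and the other tested genes of their pathway, all but 1, grouped by role; red and blue are genes called higher and lower by edgeR at an adjusted p under 0.05, gray did not pass. The 9 enzymes and the folate cycle genes shown all lie to the right of 0, between 0.21 (Mthfd2) and 1.30 (Shmt1), while salvage and breakdown genes lie on both sides.

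Other processes of dividing cells were counted for comparison. Of 13 enzymes of purine synthesis, 9 were called higher and 1 lower, with a median log2 fold change of 0.35. Of 15 replication licensing factors, 12 were called higher and 0 lower, with a median of 0.43. Of 20 mitosis genes, 12 were called higher and 2 lower, with a median of 0.18. The difference between these lists and the 9 enzymes was not tested.

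Among 10 genes that are known to regulate this pathway, 7 were called higher and 2 lower. Myc, which activates nucleotide synthesis genes, was at 132, 188 and 179.7 CPM in wild type and 226, 249.2 and 227 CPM in KO. Wild-type replicate 1 was well below all others, and the groups did not overlap. Myc rose by 0.49 ± 0.11 on the log2 scale (edgeR adjusted p = 0.00397), and by 0.35 without that library. E2f8 (log2 0.65 ± 0.10) and E2f7 (0.57 ± 0.11), repressors that are themselves made in S phase, rose, as did Trp53 (0.37 ± 0.05), the gene of p53. E2f3 and E2f4, named after their values were seen, were called higher with edgeR adjusted p of 0.0469 and 0.0448, and without wild-type replicate 1 these were 0.0781 and 0.0585. E2f1, named likewise, was called higher (log2 0.31 ± 0.09, edgeR adjusted p = 0.015) and remained so without that library (log2 0.21, adjusted p = 0.00815). E2f2 fell from 174.5 ± 9.22 to 121 ± 8.06 CPM (log2 -0.53 ± 0.06), and Rb1, the retinoblastoma protein that restrains E2F factors, from 172 ± 20.5 to 128 ± 8.24 CPM (log2 -0.42 ± 0.08). The edgeR adjusted p of these 5 named genes (E2f8, E2f7, Trp53, E2f2 and Rb1) ran from 0.000114 to 0.00203.

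The genes whose profile over the 6 libraries was closest to the mean profile of the 9 enzymes, among 9592 candidates of at least 5 CPM, were Mrpl3, a mitochondrial ribosomal protein (root mean square difference 0.0117 on the log2 scale), Polr3d, a subunit of RNA polymerase III (0.0159), Nasp, a histone chaperone (0.0177), Pa2g4, also called Ebp1 (0.0200) and Atic, the enzyme of the last steps of purine synthesis (0.0207). Mrpl3, for example, was at 31.7, 36.6 and 36.6 CPM in wild type and 52.2, 58.2 and 55.0 CPM in KO. The 9 enzymes themselves lay between 0.0383 (Ctps) and 0.152 (Dtymk) from their mean, with Rrm2 at 0.148. The likeness is over 6 libraries of 1 contrast and says nothing of shared function.

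Reads that fit more than 1 gene could move these values, since no source used here says how the counting treated them. No 50-base stretch of the chosen transcripts of Cad, Rrm1, Dut and Dtymk occurs in a transcript of another gene. For Ctps 1.28% of such stretches do, for Umps 4.83%, for Rrm2 6.48%, for Tk1 7.26% and for Tyms 11.05%. None was shared with Ctps2, Rrm2b or Tk2. Exons of Umps overlap the antisense gene Gm15829, which had 0 to 2 counts per library, by 213 bases, and exons of Tk1 overlap Afmid on the opposite strand, at 134 to 258 counts per library, by 83 bases.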

How the data were processed

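The 6 libraries, 3 wild type and 3 Drp1 KO, were grouped by the genotype and replicate number in the labels. Per the labels' protocols, RNA was taken up with a column kit and made into stranded mRNA libraries. The deposited values are raw counts, in 1 table with a row per gene symbol and a column per library; the submitters' processing notes name STAR 2.5.2, HTSeq 0.6.1, DESeq2 1.12, FastQC and Cufflinks, and mm10, without roles. Not given in the sources used here: the strand setting, the annotation release and the treatment of reads with several matches. Of 45808 rows, 21769 were 0 throughout, and 27 had a date in place of a symbol (0.241% of counts, kept in the totals).

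Counts were tested with edgeR 4.0.16 in R 4.3.3: TMM factors (0.949 to 1.03), filterByExpr (14209 genes kept, with 99.9% of counts), the quasi-likelihood F test (residual degrees of freedom 4), and p-values adjusted by Benjamini-Hochberg over all tested genes, called under 0.05. CPM uses the TMM factors, fold changes are KO over wild type, and SE was taken from the F statistic. Log2 CPM has a prior count of 2. Positions, IDs and lengths come from GENCODE M21, matched by symbol, and promoters from RefSeq, where all 9 enzymes matched. The procedure was tested on simulated data in which few genes were changed. That setting does not test the scaling where, as here, many genes differ.

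The members, the 17 lists of related genes and markers (162 entries), the tests and the rule for named genes were chosen with earlier results of these data known, and the lists were written from general knowledge. Named by rule were the 9 enzymes, Dnm1l, Myc, Xist, the 3 paralogs, up to 3 genes called higher and 3 called lower with the smallest adjusted p in each pathway list, and the 5 genes closest in profile. The alternatives were DESeq2 size factors, upper quartile factors or library totals in edgeR, DESeq2 1.42.0, limma-voom (limma 3.58.1), no filter, 1 CPM in 3 libraries, an adjusted p under 0.01, the replicate number as a block, and each library left out. For the ratios a prior count of 0.5 was also tried. The alternatives for the other pathway genes, levels per coding length, and the shorter E2F forms were chosen after seeing the data. The values of 1 folate cycle gene are not reported here, though it counts in the totals. Figures were drawn with matplotlib 3.10.9.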

Additional observations from a re-analysis of the deposited data

How the results depend on the processing

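The 9 enzymes were called higher, and 0 lower, under each of 15 alternatives (135 of 135 values, largest adjusted p 0.00394), and their median log2 fold change ran from 0.60 without wild-type replicate 1 to 0.72 with library totals alone. Over all genes, calls ran from 5985 to 7534 with 1 library left out and were 5369 at an adjusted p under 0.01 and 6868 with DESeq2. With library totals alone, 62.0% of calls were higher in KO, against 50.6% as reported. The other pathway genes had 34 calls, and 28 to 36 with 1 library left out. Log2 ratios with 1 library left out ran from 0.50 to 0.70 (Rrm2 to Rrm2b), 0.23 to 0.35 (Rrm2 to Rrm1), 1.07 to 1.29 (Ctps to Ctps2) and 0.56 to 0.68 (Tk1 to Tk2). Genes named by rule changed their call in 12 cases, those of Tk2, Uprt and Dck, all but the stricter threshold and the unfiltered fit for Uprt (adjusted p 0.0537) given above; the cause was not tested.

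Whether the shared replicate numbers pair the libraries is not given by the labels and is not settled by these values. Deviations from the group mean correlated at 0.174, 0.125 and 0.0112 for numbers 1, 2 and 3. Between wild-type and KO libraries of unlike number they ran from -0.172 to 0.105, and wild-type replicate 3 was closer to KO replicate 2 (0.105) than to KO replicate 3. With the replicate block, edgeR called 7900 genes and 9 of 9 enzymes, with a median of 0.65; the exact paired test of each ratio gave p = 0.25, the smallest it allows.

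The fewest reads of an enzyme in a library were 773, so counting error was at most 3.60% of an enzyme's value.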
